A study of Mus musculus with 18 samples.

Results

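Src family kinases are membrane-anchored tyrosine kinases that relay signals from integrins, growth factor receptors and immune receptors. Each is held in a closed, inactive shape when a tyrosine near its carboxyl end is phosphorylated and folds back onto the kinase's own Src homology domain. C-terminal Src kinase, Csk, adds that phosphate, and phosphatases such as Ptprc (CD45), Ptpra and Ptpn1 remove it. The transcriptional coactivator YAP was named after its partner Yes (Yes-associated protein), and Src family kinases are known to phosphorylate YAP on the tyrosine called Y357. The RNA of 8 Src family kinase genes and of Csk was followed here in mouse liver tumors and in a mouse tumor cell line. The 9 genes were taken by name from the tumor table, which holds 43346 genes. They were matched by identifier in the cell line table, and all 9 passed the filter on low counts that left 18318 genes for testing.

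All tumors carried myr-AKT, an activated AKT, together with a form of YAP. YAP-SY (S127A/Y357F) lacks both the inhibitory serine and the tyrosine Y357, and YAP-S (S127A) lacks only the serine. The groups were YAP-SY CCA (tumors 1, 6 and 8), YAP-S CCA (tumors 3, 4 and 5), YAP-SY mixed (tumors 3, 5 and 9) and YAP-S mixed (tumors 2, 7 and 9), with CCA standing for cholangiocarcinoma, cancer of bile duct type. SB1 is a cell line with the genotype label of YAP-S CCA, sequenced in 3 samples. The promoters that drive AKT and YAP, and the strain, sex and age of the animals, are not given in the sources used here. Nor do the labels say that each tumor came from its own animal, so p-values measure the spread between these samples. The numbers 3, 5 and 9 occur in both models.

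The tumor libraries held 30656499 to 130035221 counts and the SB1 libraries 25341968 to 30541185. Genes with a count numbered 18207 in YAP-SY CCA tumor 1, the fewest, and up to 24391 in the others. Krt19, a bile duct keratin, was lower in CCA than in mixed tumors with YAP-SY and higher with YAP-S. It averaged 6.51 CPM (read counts scaled to the size of the library) in YAP-SY CCA and 28.3 CPM in YAP-SY mixed tumors, and 60.3 CPM in YAP-S CCA and 24.8 CPM in YAP-S mixed tumors. Across 12 bile duct markers the summed level was 2790 to 4240 CPM in YAP-SY CCA and 7681 to 11012 CPM in the YAP-S CCA tumors. Across 12 hepatocyte markers it was 144332 to 166702 CPM in YAP-SY CCA and 50085 to 62922 CPM in the YAP-S CCA tumors. SB1 cells held 1429 CPM of Krt19 and 226 CPM of Krt7 but only 0.235 CPM of Epcam, an epithelial surface marker.

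The genes were grouped by where they are best known. Src (ENSMUSG00000027646, mm10 chr2:157418444-157471862), Yes1 (ENSMUSG00000014932, chr5:32611171-32687066) and Fyn (ENSMUSG00000019843, chr10:39368855-39565381) are broadly expressed. Frk (ENSMUSG00000019779, chr10:34483400-34611226) is a Src-related kinase of epithelia, and lies on the same chromosome as Fyn. The blood cell members are Lyn (ENSMUSG00000042228, chr4:3678115-3813122), Lck (ENSMUSG00000000409, chr4:129548344-129573641), Fgr (ENSMUSG00000028874, chr4:132974095-133001910) and Blk (ENSMUSG00000014453, chr14:63372837-63417187). Lyn works in B cells and myeloid cells, Lck in T cells, Fgr in myeloid cells and Blk in B cells. Csk (ENSMUSG00000032312, chr9:57626647-57645653) has no such regulatory tail tyrosine of its own.

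The regulatory tail is shown because it is the site through which Csk and the phosphatases act on these kinases. Each line gives 39 bases of coding sequence, 5' to 3', read from GENCODE M21 transcripts on mm10, and capitals mark the last tyrosine codon of the coding sequence.
Src: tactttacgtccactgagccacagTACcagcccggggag
Yes1: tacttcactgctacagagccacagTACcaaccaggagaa
Fyn: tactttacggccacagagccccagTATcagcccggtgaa
Fgr: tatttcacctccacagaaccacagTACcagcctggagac
Lyn: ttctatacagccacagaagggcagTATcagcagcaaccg
Lck: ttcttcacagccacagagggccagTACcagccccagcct
Blk: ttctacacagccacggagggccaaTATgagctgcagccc
Frk: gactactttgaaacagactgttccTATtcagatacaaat
The windows lie at chr2:157469914-157469952 (Src), chr5:32684712-32684750 (Yes1), chr10:39563925-39563963 (Fyn), chr4:133000296-133000334 (Fgr), chr4:3789903-3789941 (Lyn), chr4:129548801-129548839 (Lck, minus strand), chr14:63373395-63373433 (Blk, minus strand) and chr10:34608518-34608556 (Frk). The tails of Src, Yes1, Fyn and Fgr shared 29 to 33 of 39 bases in pairs, and those of Lyn, Lck and Blk shared 30 or 31. Between these sets 19 to 27 bases were identical, and Frk shared 10 to 16 with any other member. All these counts line the windows up on the tyrosine codon without gaps, so a shifted tail scores low. The tyrosine codon was followed by 6 more codons in Src, Yes1, Fyn and Fgr, by 4 in Lyn, Lck and Blk and by 8 in Frk. The sequence sets do not follow the expression groups, since Fgr, a myeloid gene, has a tail of the Src kind.

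Src, Frk, Fyn, Lck and Fgr RNA was lower in YAP-SY CCA than in YAP-S CCA tumors, while Yes1, Lyn, Blk and Csk did not pass the test. Lck was 7.06-fold, Src 4.05-fold, Fgr 3.14-fold, Frk 2.06-fold and Fyn 1.39-fold lower in YAP-SY CCA (3 tumors a group). In mixed tumors none of the 9 genes differed by the test between the YAP forms. Csk stood higher relative to Src in YAP-SY CCA tumors than in any other tumor. The quasi-likelihood test of edgeR, adjusted over all genes by Benjamini-Hochberg, called 5 of the 9 genes in CCA, all lower, where 39.1% of all genes passed in either direction and 20.8% lower. The same 5 were lower in every YAP-SY CCA tumor than in any YAP-S CCA tumor, as were 28.3% of all genes.

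**Figure D1:**
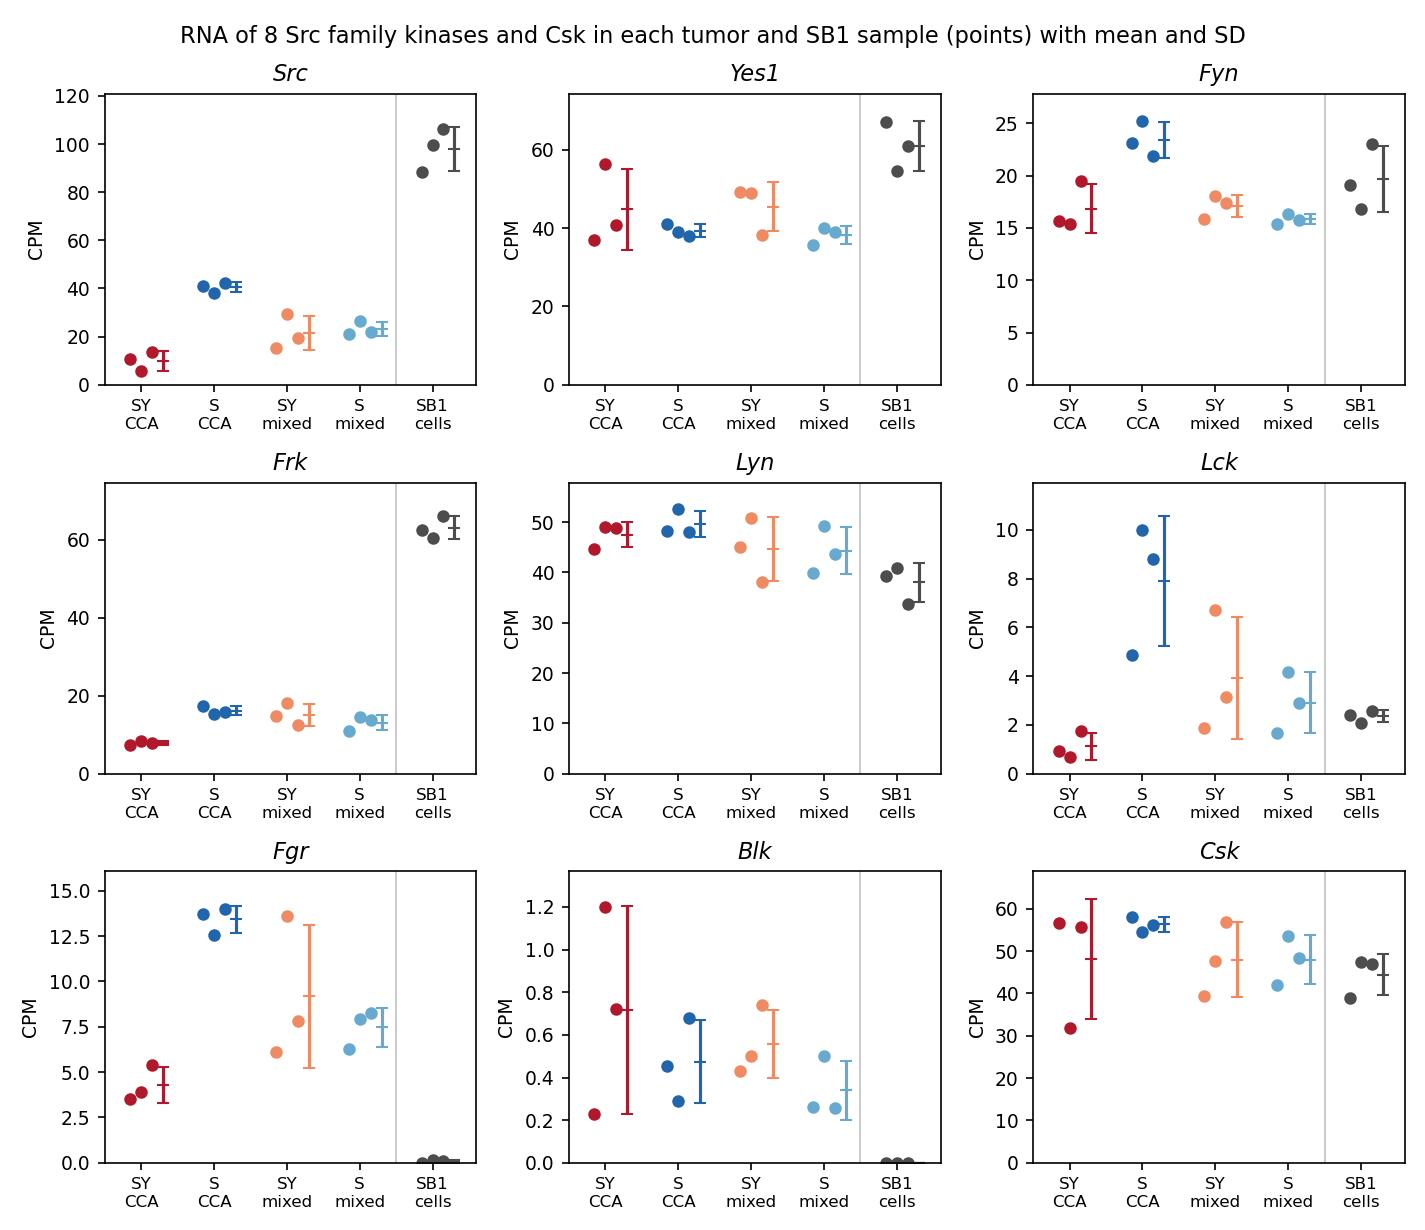
Level of each gene in CPM (vertical axes from 0, scales differ) in YAP-SY (SY) and YAP-S (S) CCA tumors, YAP-SY and YAP-S mixed tumors and SB1 cells. Points are samples and the bars beside them the mean and SD of 3. Src, Frk, Lck and Fgr are lower in all YAP-SY CCA tumors than in any YAP-S CCA tumor, and SB1 values come from another table and were normalised apart.

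Src, the founding member of the family and a kinase of adhesion sites, showed the clearest separation among the broadly expressed members. It was at 10.8, 5.56 and 13.6 CPM in the YAP-SY CCA tumors 1, 6 and 8, against 41.1, 38.3 and 42.2 CPM in the YAP-S CCA tumors 3, 4 and 5. No YAP-SY CCA tumor came near the lowest YAP-S CCA tumor, and tumor 6 was the lowest of all 12. The log2 fold change was -2.02 (SE 0.293, adjusted p 0.000378 by edgeR's quasi-likelihood test). In mixed tumors Src was at 15.4, 29.2 and 19.6 CPM in YAP-SY tumors 3, 5 and 9, against 21.0, 26.4 and 22.1 CPM in YAP-S tumors 2, 7 and 9. The mixed groups overlapped (log2 fold change -0.11, SE 0.281, adjusted p 0.999), and both lay between the CCA groups. Over both histologies Src passed at -1.07 (adjusted p 0.00405).

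Frk, an epithelial kinase known as a brake on growth in human breast cells, held 7.25, 8.27 and 7.99 CPM in the YAP-SY CCA tumors, against 17.5, 15.2 and 15.8 CPM in the YAP-S CCA tumors. The groups were tight and did not overlap (log2 fold change -1.05, SE 0.171, adjusted p 0.00074 by edgeR). In mixed tumors Frk was at 14.7, 18.2 and 12.6 CPM in YAP-SY and at 11.0, 14.7 and 13.7 CPM in YAP-S tumors. YAP-SY CCA was thus the only group of tumors with every Frk value under 11 CPM.

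Fyn, which acts in T cells, neurons and many adherent cells, was at 15.7, 15.3 and 19.5 CPM in the YAP-SY CCA tumors, against 23.1, 25.3 and 21.9 CPM in the YAP-S CCA tumors. The groups did not overlap, and the fall was the smallest of the 5 (log2 fold change -0.48, SE 0.135, adjusted p 0.0146 by edgeR). This call ended without YAP-S CCA tumor 4 (-0.42, adjusted p 0.0602). Mixed tumors held 15.9, 18.0 and 17.4 CPM with YAP-SY and 15.4, 16.4 and 15.8 CPM with YAP-S. YAP-S CCA was the group that stood above the rest for Fyn.

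Yes1, the cellular Yes kinase after which YAP was named, held 37.1, 56.5 and 40.8 CPM in the YAP-SY CCA tumors, against 41.1, 39.1 and 37.9 CPM in the YAP-S CCA tumors. The groups overlapped, and YAP-SY CCA tumor 6, the lowest for Src, was the highest for Yes1. The log2 fold change was 0.19 with a 95% interval from -0.13 to 0.50 (adjusted p 0.379 by edgeR), and it turned to -0.39 (adjusted p 0.0609) with library size alone, a scaling that moved the median of all genes as well. In mixed tumors Yes1 was at 49.2, 48.9 and 38.2 CPM with YAP-SY and at 35.7, 40.0 and 38.9 CPM with YAP-S, again overlapping.

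The blood cell members did not move as 1 group. Lck, which starts signalling from the T cell receptor, was at 0.929, 0.671 and 1.75 CPM in the YAP-SY CCA tumors, against 4.89, 9.97 and 8.80 CPM in the YAP-S CCA tumors. The groups did not overlap (log2 fold change -2.82, SE 0.528, adjusted p 0.00156 by edgeR), on 24 to 63 counts a tumor in YAP-SY CCA and 376 to 857 in YAP-S CCA. Fgr, which acts below myeloid integrins, was at 3.51, 3.91 and 5.40 CPM in the YAP-SY CCA tumors, against 13.7, 12.6 and 14.0 CPM in the YAP-S CCA tumors. It did not overlap either (log2 fold change -1.65, SE 0.276, adjusted p 0.000825 by edgeR). YAP-SY mixed tumor 5 was the highest mixed tumor for both, at 6.71 CPM of Lck and 13.6 CPM of Fgr, and the mixed groups overlapped.

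Lyn, the kinase that both starts and restrains B cell and myeloid receptor signals, was at 44.7, 49.0 and 48.8 CPM in the YAP-SY CCA tumors, against 48.2, 52.6 and 47.9 CPM in the YAP-S CCA tumors. These groups overlapped, with a log2 fold change of -0.06 and a 95% interval from -0.32 to 0.19 (adjusted p 0.736 by edgeR). Blk, a kinase below the B cell receptor, was near the limit of detection, at 8 to 95 counts a tumor and a mean of 0.717 ± 0.488 CPM in YAP-SY CCA and 0.475 ± 0.195 CPM in the YAP-S CCA tumors (SD, n = 3 each). It did not pass (log2 fold change 0.60, 95% interval -0.55 to 1.75, adjusted p 0.442).

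**Figure D2:**
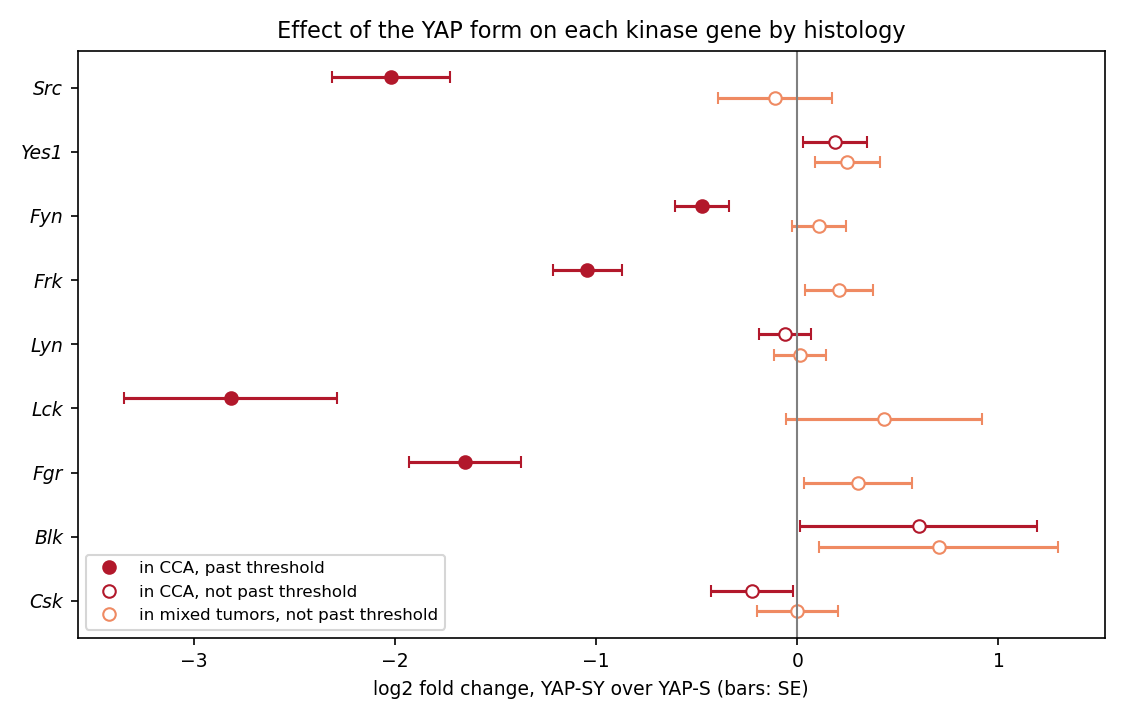
Log2 fold change of YAP-SY over YAP-S (horizontal axis, bars are the SE) for each gene in CCA and in mixed tumors. Filled points passed an adjusted p of 0.05 in edgeR's quasi-likelihood test, which Src, Fyn, Frk, Lck and Fgr did in CCA and no gene did in mixed tumors.

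In mixed tumors 0 of the 9 genes passed, and 0% of all genes did. At an unadjusted p under 0.05 there were 551 genes of the 18318, which is 3.01%, none of them among the 9, and the Wald test of DESeq2 called 11 genes and none of the 9. The 9 log2 fold changes ran from -0.11 (Src) to 0.70 (Blk), and every pair of groups overlapped, where 8.35% of all genes separated the groups. For Src the 95% interval of the log2 fold change ran from -0.66 to 0.44, and for Lck from -0.52 to 1.38. By a test of the difference itself in edgeR, the effect of the YAP form differed between histologies for Lck (-3.25, SE 0.713, adjusted p 0.0132), Fgr (-1.95, SE 0.384, adjusted p 0.00822), Src (-1.91, SE 0.402, adjusted p 0.0111) and Frk (-1.25, SE 0.24, adjusted p 0.00764). These are 4 of 9 genes against a background of 15.2%, or 10.2% in the lower direction. Fyn missed the threshold (-0.58, adjusted p 0.0555), and for Yes1, Lyn, Blk and Csk the difference lay between -0.23 and -0.06. The Lck call ended in limma-voom with sample quality weights (-2.28, adjusted p 0.0617).

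Over both histologies 4 of 9 genes passed, all lower in YAP-SY, against a background of 24.9%, or 13.1% lower. Beside Src these were Lck (-1.19, adjusted p 0.0279), Fgr (-0.68, adjusted p 0.0232) and Frk (-0.42, adjusted p 0.0241), by edgeR. No gene of the 4 separated all YAP-SY from all YAP-S tumors, as 0.868% of all genes did in the lower direction. Without YAP-SY mixed tumor 3 or without YAP-S mixed tumor 7 only Src passed. Lck also lost its call without YAP-SY CCA tumor 1 or 6, YAP-SY mixed tumor 9 or YAP-S CCA tumor 4 or 5, at -1.16 to -1.07, and Frk without YAP-S CCA tumor 3 or YAP-S mixed tumor 9, at -0.40 and -0.42 (adjusted p 0.0549 and 0.0518). Over both histologies 9 of 10 fibroblast, 6 of 10 pan-leukocyte, 5 of 12 bile duct and 3 of 6 tested neutrophil markers were also lower in YAP-SY, and 0 of 14 T and NK cell markers passed. Of 9 macrophage markers 1 was lower and 1 higher, of 10 endothelial markers 1 was lower, and of 10 B cell markers 1 was higher. Of 12 hepatocyte markers 8 were higher, as were 11.8% of all genes. The part of these cells in the 4 calls was not tested.

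Within YAP-SY, CCA tumors held less Frk than mixed tumors (log2 fold change -0.95, SE 0.171, adjusted p 0.0189 by edgeR). It was the only 1 of the 9 genes past the threshold, against a background of 2.9%, or 2.7% lower. Src (-1.10, adjusted p 0.0588), Fgr (-1.11, adjusted p 0.0505) and Lck (-1.82, adjusted p 0.0743) did not pass, although for each of them all 3 CCA tumors lay below all 3 mixed tumors, as for 12.1% of all genes. The Frk call was lost when YAP-SY CCA tumor 1 or 6 was left out (adjusted p 0.0655 and 0.0687), and without YAP-SY mixed tumor 5 (-0.80, adjusted p 0.0644). It was also lost with limma-voom sample quality weights (-0.91, adjusted p 0.0749), with the replicate block (-0.91, adjusted p 0.0599) and with only these 2 groups in the fit (adjusted p 0.143). Without YAP-SY mixed tumor 3 all of Src, Frk, Lck and Fgr passed. Of 12 bile duct markers 2 were lower in CCA, as were 2 of 10 fibroblast and 1 of 10 pan-leukocyte markers, with medians of -1.36, -0.82 and -0.91. The hepatocyte sum was 144332 to 166702 CPM in CCA and 88910 to 117907 CPM in mixed YAP-SY tumors, and the bile duct sum 2790 to 4240 CPM in CCA and 4367 to 16548 CPM in mixed YAP-SY tumors. The part of these cells in the Frk result was not tested.

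Within YAP-S the direction was the opposite. Src, Fyn, Frk, Lck, Fgr and Csk were each higher in all 3 CCA tumors than in any mixed tumor, 6 of 9 genes, where 20.2% of all genes were. The pan-leukocyte sum was 206 to 312 CPM in CCA and 131 to 199 CPM in mixed tumors. The fibroblast sum was 1984 to 2474 CPM in CCA and 849 to 1110 CPM in mixed tumors. The hepatocyte sum was 50085 to 62922 CPM in CCA and 85156 to 92929 CPM in mixed tumors. Sums of the other marker lists overlapped. The part of these cells in the 6 genes was not tested. None of the 9 passed in edgeR, nor did any gene (0%), although 3636 genes (19.8%) had an unadjusted p under 0.05. The largest values were 1.43 for Lck (adjusted p 0.140), 0.85 for Fgr (0.118), 0.81 for Src (0.145) and 0.56 for Fyn (0.0617). DESeq2 called Fyn, Lck and Fgr, among 1514 genes, and a fit of only these 6 tumors called Src, Fyn, Lck and Fgr, among 2393 genes.

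Csk, the kinase that shuts Src family members, did not pass in CCA. It was at 56.7, 31.8 and 55.7 CPM in the YAP-SY CCA tumors, against 58.0, 54.5 and 56.2 CPM in the YAP-S CCA tumors, with YAP-SY CCA tumor 6 apart from the rest of its group. The log2 fold change was -0.23, with a 95% interval from -0.63 to 0.17 (adjusted p 0.402 by edgeR). In mixed tumors Csk was at 39.3, 47.5 and 56.9 CPM with YAP-SY and at 42.0, 53.6 and 48.3 CPM with YAP-S. A p that misses the threshold does not show that these levels were alike. With library size alone the median of all genes in CCA moved to -0.57, and Csk (-0.78, adjusted p 0.0158) and Lyn (-0.63, adjusted p 0.0049) then passed as lower, both near that median.

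The log2 CPM of Csk minus that of Src is the same whatever the scaling of the libraries. It was 2.39, 2.51 and 2.03 in YAP-SY CCA tumors, against 0.50, 0.51 and 0.41 in YAP-S CCA tumors. Tumor 6, lowest for both genes, was no outlier in this difference. The means were 2.31 ± 0.25 in YAP-SY CCA and 0.47 ± 0.05 in YAP-S CCA (SD, n = 3 each). They differed by 1.84, with an exact two-sided permutation p of 0.1, the smallest that 3 against 3 can give. In mixed tumors the difference was 1.35, 0.70 and 1.54 with YAP-SY and 1.0, 1.02 and 1.13 with YAP-S, a gap of 0.15 (exact permutation p 0.6). Over both histologies, with labels permuted within histology, the gap was 0.99 (exact p 0.03, or 0.125 after Benjamini-Hochberg adjustment over 5 such comparisons, where 0.005 was the smallest p possible). Without YAP-SY mixed tumor 9 it was 0.91 (exact p 0.055).

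**Figure D3:**
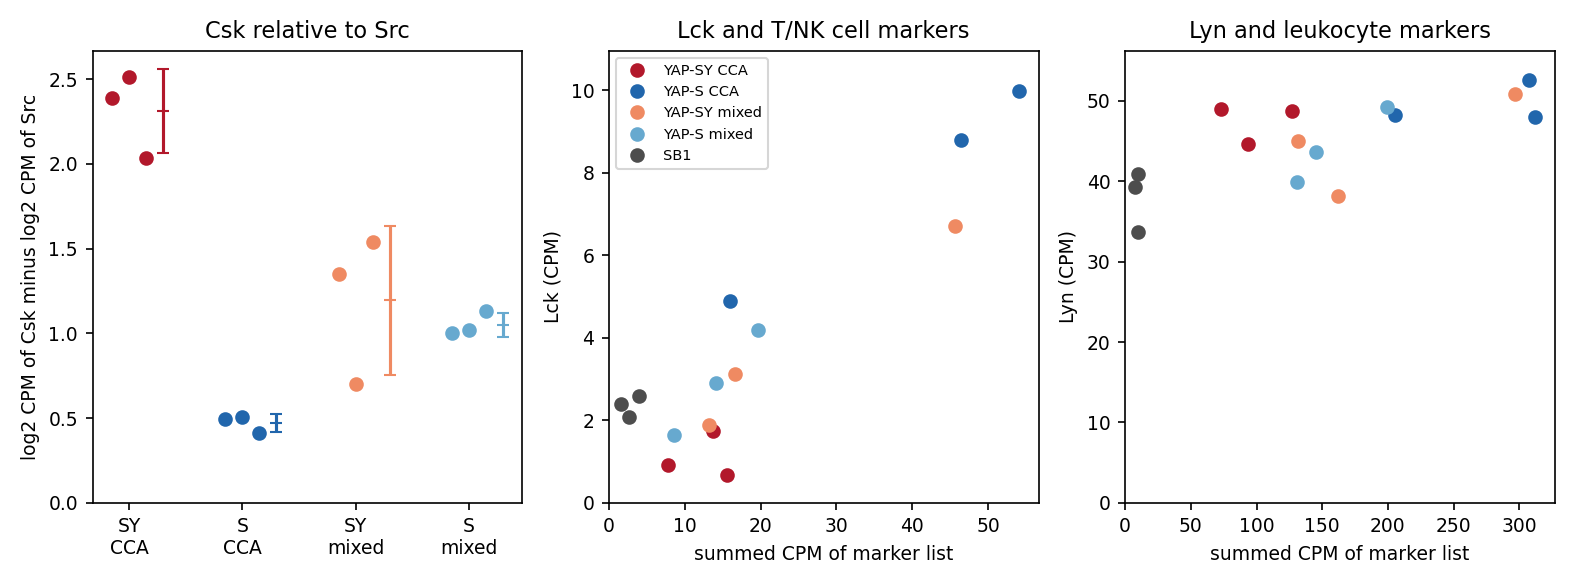
Left, log2 CPM of Csk minus log2 CPM of Src in each tumor with mean and SD, 2.03 to 2.51 in YAP-SY CCA and 0.41 to 0.51 in YAP-S CCA tumors. Middle and right, Lck against the summed CPM of 14 T and NK cell markers and Lyn against that of 10 pan-leukocyte markers, where SB1 cells hold Lyn beside a pan-leukocyte sum of 7.17 to 9.85 CPM.

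Levels per kilobase of exon allow the genes to be ranked against each other. In YAP-SY CCA tumors the order was Csk (17.5 ± 5.12 CPM per kb, SD, n = 3), Lyn (11.7 ± 0.601), Yes1 (9.72 ± 2.24), Fyn (3.86 ± 0.535), Src (2.29 ± 0.935), Frk (1.63 ± 0.110), Fgr (1.11 ± 0.257), Lck (0.382 ± 0.193) and Blk (0.290 ± 0.197). Single tumors overlapped between Csk and Lyn, Csk and Yes1, Lyn and Yes1, Src and Frk, Src and Fgr, and Lck and Blk. In YAP-S CCA tumors the order was Csk (20.5 ± 0.645 CPM per kb), Lyn (12.2 ± 0.643), Src (9.28 ± 0.466), Yes1 (8.54 ± 0.349), Fyn (5.37 ± 0.395), Fgr (3.48 ± 0.192), Frk (3.37 ± 0.247), Lck (2.69 ± 0.910) and Blk (0.192 ± 0.0787). There Src and Yes1, Fgr and Frk, Fgr and Lck, and Frk and Lck overlapped. Src thus stood below Fyn in YAP-SY CCA and beside Yes1 in YAP-S CCA tumors. Mixed tumors had the order Csk, Lyn, Yes1, Src, Fyn, Frk, Fgr, Lck, Blk with both YAP forms, with Src at 4.90 ± 1.62 CPM per kb in YAP-SY and 5.30 ± 0.661 in YAP-S tumors.

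As a share of the summed per-kilobase level of the 8 kinases, Src made up 7.47 ± 3.10% in YAP-SY CCA and 20.6 ± 1.33% in YAP-S CCA tumors (SD, n = 3 each). Yes1 made up 31.3 ± 5.58% in YAP-SY CCA and 18.9 ± 0.936% in YAP-S CCA, and Lyn 37.8 ± 1.33% and 27.0 ± 1.0% in these groups. Together Yes1 and Lyn were the bulk of the family RNA in YAP-SY CCA tumors. YAP-SY mixed tumors held 27.0 ± 3.57% Yes1 and 30.0 ± 1.93% Lyn, and YAP-S mixed tumors 24.5 ± 1.14% and 32.1 ± 0.394%. Yes1 and Lyn were thus the bulk in mixed tumors as well. In mixed tumors Src held 13.2 ± 2.61% with YAP-SY and 15.6 ± 0.680% with YAP-S. Shares add to the whole, so that a fall of Src and Lck raises the shares of the others without any change in their levels.

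**Figure D4:**
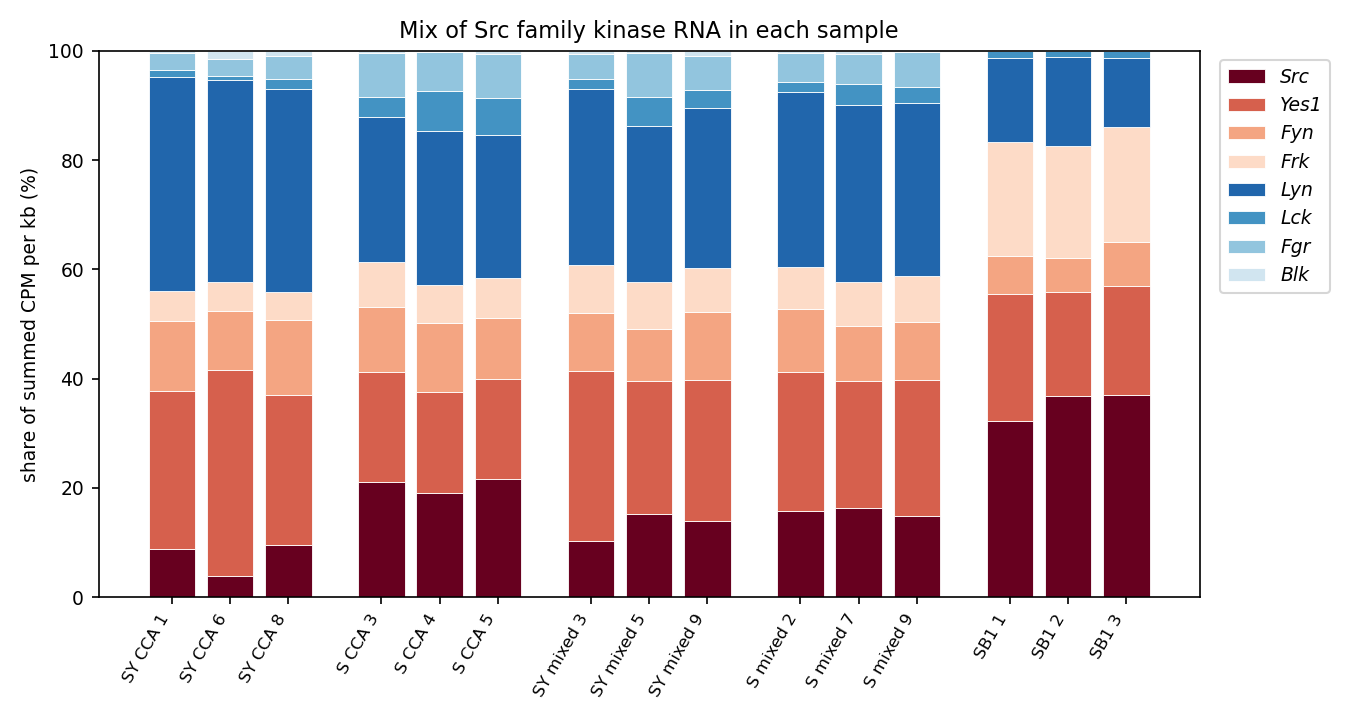
Share (%) of each kinase in the summed CPM per kb of 8 Src family kinases, 1 bar a sample, with broadly expressed members in red and blood cell members in blue. Src averages 7.47% in YAP-SY CCA and 20.6% in YAP-S CCA tumors, and Fgr and Blk are all but missing from SB1 cells.

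SB1 cells show which members a tumor-derived line holds on its own. Their levels come from uncorrected counts scaled to library size in another table, so they stand beside the tumors without a test. Src was at 88.3, 99.5 and 106 CPM, Frk at 62.6, 60.6 and 66.2 CPM and Yes1 at 67.2, 54.6 and 60.9 CPM in the 3 samples. Src and Frk lay above every tumor in all 3 samples, while Yes1 overlapped with YAP-SY CCA tumor 6. Csk held 38.8, 47.4 and 47.0 CPM and Fyn 19.2, 16.8 and 23.0 CPM, within the range of the tumors. Per kilobase, Src led at 22.4 ± 2.06 CPM per kb (SD, n = 3), before Csk at 16.2 ± 1.77, Yes1 at 13.2 ± 1.37, Frk at 13.2 ± 0.595, Lyn at 9.33 ± 0.932, Fyn at 4.51 ± 0.719 and Lck at 0.804 ± 0.0853. Csk overlapped with Yes1, and Yes1 with Frk.

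Among blood cell members, Lyn was at 39.3, 41.0 and 33.7 CPM in SB1, beside 38.1 to 52.6 CPM in the tumors. The pan-leukocyte sum in SB1 was 7.17 to 9.85 CPM, with 4 of 10 markers at 0 in each sample and Ptprc at 0.038 CPM, at most 3 counts. Most of that sum was Arhgdib, at a mean of 7.86 CPM. The T and NK cell sum was 1.54 to 3.96 CPM, with 9 to 11 of 14 markers at 0, Cd3d and Cd3e among them. Most of it was Trac, at a mean of 2.46 CPM. Lck had 73, 53 and 68 counts, or 2.36 ± 0.25 CPM, more than in any YAP-SY CCA tumor. Fgr had 0, 4 and 3 counts, and Blk 0 in each sample, where 3 counts are 0.0982 to 0.118 CPM. The macrophage sum was 138 to 179 CPM, most of it from Csf1r (54.5 CPM) and Cd14 (96.2 CPM), while Lyz2 was at 0.0757 CPM. The 18 immune receptor partners summed to 125 to 137 CPM. The part of such cells in the Lyn and Lck levels of SB1 was not tested.

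Markers of other cell types moved with several of these genes. In bulk tumors, fewer cells of a type and less RNA per cell cannot be told apart. In CCA, 9 of 10 pan-leukocyte markers and 8 of 14 T and NK cell markers were lower in YAP-SY, as were 6 of 9 macrophage markers, while 2 macrophage markers were higher. Over all genes in CCA, 20.8% were lower and 18.3% higher. The pan-leukocyte sum was 72.6 to 127 CPM in YAP-SY CCA and 206 to 312 CPM in the YAP-S CCA tumors. The T and NK cell sum was 7.77 to 15.5 CPM in YAP-SY CCA and 15.9 to 54.0 CPM in the YAP-S CCA tumors. The macrophage sums overlapped, at 386 to 480 CPM in YAP-SY CCA and 457 to 831 CPM in the YAP-S CCA tumors. Mrc1 averaged 91.1 CPM in YAP-SY CCA and 47.7 CPM in YAP-S CCA, and Clec4f 106 and 73.0 CPM. The other macrophage markers had lower means in YAP-SY CCA. None of the defining markers Ptprc, Cd3d and Cd3e was at 0 as a group mean. Of 8 neutrophil markers 6 were tested and 3 were lower, with sums of 6.09 to 8.68 CPM in YAP-SY CCA and 15 to 19.6 CPM in the YAP-S CCA tumors. Of 10 endothelial markers 3 were lower and 2 higher, with sums of 439 to 551 CPM in YAP-SY CCA and 359 to 468 CPM in the YAP-S CCA tumors. The part of these cells in the results on Lck, Fgr and Fyn was not tested.

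Relative to the markers the members differed. Fgr was a median 4.25% of the pan-leukocyte sum in YAP-SY CCA and 4.49% in YAP-S CCA tumors, with overlapping ranges. Lck was 4.32 to 12.8% of the T and NK cell sum in YAP-SY CCA and 18.5 to 30.7% in YAP-S CCA tumors, without overlap. In mixed tumors it was 14.4 to 18.9% with YAP-SY and 19.4 to 21.3% with YAP-S, also without overlap. Lck had only 24 to 63 counts a tumor in YAP-SY CCA, and these shares were not tested. Lyn was 38.4 to 67.5% of the pan-leukocyte sum in YAP-SY CCA and 15.4 to 23.5% in YAP-S CCA tumors. The Lyn ranges in CPM overlapped between these groups while the leukocyte sums did not. Fyn was 15.4 to 21.1% of the pan-leukocyte sum in YAP-SY CCA and 7.01 to 11.2% in YAP-S CCA tumors. Src was 0.199 to 0.433% of the bile duct sum in YAP-SY CCA and 0.384 to 0.499% in YAP-S CCA tumors. Frk was 0.171 to 0.297% of that sum in YAP-SY CCA and 0.143 to 0.205% in YAP-S CCA tumors. The Src and Frk ranges overlapped. Most of the bile duct sum was Spp1, at a mean of 3274 CPM in YAP-SY CCA and 8489 CPM in YAP-S CCA. For B cells, 1 of 10 markers was higher and none lower in CCA, and their sum was 37.5 to 54.1 CPM in YAP-SY and 23.1 to 55.8 CPM in YAP-S tumors.

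Of the 12 bile duct markers 9 were lower, and of the 12 hepatocyte markers 10 were higher, in YAP-SY CCA, beside the 20.8% lower and 18.3% higher of all genes. Of 10 fibroblast markers 9 were lower, with sums of 467 to 641 CPM in YAP-SY CCA and 1984 to 2474 CPM in the YAP-S CCA tumors. The parts of these in the results on Src, Frk and Fyn were not tested. In mixed tumors no marker of any list passed. There the leukocyte sum was 131 to 296 CPM with YAP-SY and 131 to 199 CPM with YAP-S, and the bile duct sum 4367 to 16548 CPM with YAP-SY and 9580 to 10291 CPM with YAP-S.

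Of 12 genes listed as regulators around the tail tyrosine, 5 were lower in YAP-SY CCA and none higher by edgeR. Not all 12 are enzymes that act on that tyrosine. Of all genes 20.8% were lower and 18.3% higher. The list had a median log2 fold change of -0.76 beside 0.00 over all genes. Ptprc, the leukocyte phosphatase CD45 that opens Lck, was lower (-1.18, adjusted p 0.0127), as was Ptpn1, a broad phosphatase that can open Src (-0.75, adjusted p 0.0242). Matk, a relative of Csk found mainly in blood cells and brain, was lower (-3.13, adjusted p 0.00264) at a mean of 0.725 CPM over the 12 tumors. Ptpre and Ptpn6 also fell. Ptpra (0.01), the broad phosphatase that opens Src and Fyn, Ptpn11 (-0.02), a signalling phosphatase, and Pag1 (-0.33), the membrane anchor of Csk, did not pass.

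Of 16 adaptors and substrates 5 were lower and 1 higher in YAP-SY CCA, with a median of -0.34, beside 20.8% lower and 18.3% higher over all genes. Tns3, an adhesion adaptor (-1.08, adjusted p 0.000191), Afap1, an actin-linked Src partner (-1.70, adjusted p 0.000212), and Nedd9, a docking protein of focal adhesions (-1.14, adjusted p 0.000496), had the smallest p among those lower. Pxn and Cttn were lower too. Arhgap35, a substrate of Src, was higher (0.68, adjusted p 0.00161). Ptk2, the focal adhesion kinase that pairs with Src, was at -0.05 and did not pass (adjusted p 0.763).

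Of 4 related kinases only Abl1 passed, lower in YAP-SY CCA (-0.65, adjusted p 0.00845), where 39.1% of all genes passed in either direction. Ptk6, the closest relative of Frk in the list, was at 0.01 (adjusted p 0.992). Of 18 immune receptor partners 7 were lower and 1 higher, with a median of -0.97, beside 20.8% and 18.3% of all genes. Hcls1, a substrate of leukocyte Src kinases (-1.61, adjusted p 0.00103), Tyrobp, a myeloid receptor adaptor (-1.49, adjusted p 0.00158), and Syk, the kinase that follows Src members at immune receptors (-1.45, adjusted p 0.00179), had the smallest p among those lower, and Tec was higher (0.65, adjusted p 0.00552). In mixed tumors 0 genes of these 4 lists passed.

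Across the 12 tumors, the levels of Src, Lck and Fgr were closely correlated. Pearson's r of log2 CPM was 0.93 for Src with Lck, 0.93 for Src with Fgr, 0.96 for Lck with Fgr and 0.83 for Src with Frk. Src with Lyn gave 0.18 and Yes1 with Csk -0.72. These values describe 12 tumors in 4 groups that share libraries and group differences.

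Among 12733 other genes, the closest in pattern to Src were Cbx6 (r 0.995), Nt5c3b (0.994) and Hs6st2 (0.994), those closest to Frk Lrrc8b (0.982), Abi2 (0.98) and Lca5 (0.975), and those closest to Csk Cdc42bpb (0.973), Szrd1 (0.968) and Dhx38 (0.967). For Lck they were Lsp1 (0.992), Itgae (0.991) and Slamf9 (0.991), and for Fgr Napsa (0.986), Rasgrp4 (0.986) and Arl8a (0.982). Fyn was nearest to Oasl2 (0.948), Pde1b (0.943) and Rtp4 (0.932), and Yes1 to Ccdc122 (0.953), Manea (0.95) and Ktn1 (0.943). Lyn and Blk had no close match, with Tmem185b (0.855) and Wdfy1 (0.875) as their highest.

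Src and Frk, which were lower in the same tumors, have annotated promoter windows of opposite make-up. They are shown from RefSeq (GRCm38.p6), 250 bases before to 50 after the annotated start, with matches to GGGCGG, the core of the SP1 motif, or its reverse complement CCGCCC in capitals. GGAATG and its reverse complement CATTCC, the core of the TEAD motif through which YAP reaches DNA, were searched as well.
Src: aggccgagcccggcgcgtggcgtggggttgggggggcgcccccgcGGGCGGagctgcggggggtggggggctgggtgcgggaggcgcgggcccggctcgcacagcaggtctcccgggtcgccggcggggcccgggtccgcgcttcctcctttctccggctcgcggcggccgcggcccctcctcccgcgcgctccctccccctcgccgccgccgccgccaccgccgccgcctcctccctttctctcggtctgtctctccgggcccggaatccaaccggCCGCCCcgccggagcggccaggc
Frk: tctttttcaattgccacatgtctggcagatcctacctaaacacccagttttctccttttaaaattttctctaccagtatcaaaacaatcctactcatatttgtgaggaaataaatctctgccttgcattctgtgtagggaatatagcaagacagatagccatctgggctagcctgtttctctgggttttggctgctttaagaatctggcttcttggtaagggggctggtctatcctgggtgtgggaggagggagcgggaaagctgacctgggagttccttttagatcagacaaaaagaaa
The Src window (chr2:157424043-157424342, plus strand) is 82.3% G or C with 47 CpG sites and 2 matches to GGGCGG. It lies inside the Src gene span (chr2:157418444-157471862), so it need not be the start used in these tumors, which was not tested. The Frk window (chr10:34483150-34483449, plus strand) is 43.7% G or C with 1 CpG site and no match. Over 32851 promoters of the same length the medians were 52.7% and 7 CpG sites. Neither window holds GGAATG, which 14.7% of all promoters do, against 35.7% for GGGCGG. Of the other windows only the 2 of Lck hold GGAATG, with 1 match each over both strands. Promoters of 7 of the 9 genes were in the table, all but those of Lyn and Blk, and a match is a description of letters, not of binding.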

How the data were processed

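RNA from tumor nodules and cells was extracted with a miRNeasy kit and made into TruSeq mRNA v2 libraries, per the labels' protocols. STAR and the mm10 build are named in the submitters' processing notes, with no version. The deposited tumor table holds counts per gene that the authors had corrected, and what was corrected is not given in the sources used here. The SB1 counts were deposited as raw counts in a table of their own, which holds 3 more per-sample columns whose names match no label and were not used. SY1 cells were not analysed here. Among the tumor genes, 27 symbols that a spreadsheet had turned into dates were restored by identifier.

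Genes were filtered with filterByExpr, scaled by TMM and tested in 1 fit of 12 tumors with 1 term per group (edgeR 4.0.16, glmQLFit and glmQLFTest, R 4.3.3). P-values were adjusted by Benjamini-Hochberg over 18318 genes and called under 0.05. CPM values of tumors use TMM libraries and those of SB1 plain library size. Intervals of 95% are 1.96 SE. Per-kilobase values use the deposited gene length. The Csk to Src difference used a prior count of 1 and exact permutation tests (scipy 1.17.1). Alternatives used limma 3.58.1, DESeq2 1.42.0, other scalings, no filter, and each tumor left out. The members and lists were chosen with earlier results of these data known. Named genes are the 9 members, the 3 genes closest to each by correlation among genes of at least 1 CPM, up to 3 genes of a list in each direction with the smallest p, and the first 3 markers of a cell type. Pag1, Ptpra, Ptpn11, Ptk2, Ptk6, Ptpre, Ptpn6, Pxn, Cttn and Cd14 were named outside that rule, after their values were seen. So were Arhgdib, Trac, Mrc1, Clec4f and Spp1. Sequences were read from GENCODE M21 and RefSeq tables of the same build. Counting intervals and floors cover counting error only.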

Additional observations from a re-analysis of the deposited data

Results flagged for a closer look

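For 4 genes the effect of YAP-SY against YAP-S differed between CCA and mixed tumors by a test of the difference itself in edgeR with Benjamini-Hochberg adjustment. The difference in log2 fold change, CCA minus mixed, was -3.25 for Lck, -1.95 for Fgr, -1.91 for Src and -1.25 for Frk. Of all genes 15.2% passed that test, 10.2% in the lower direction. For each of the 4 genes all 3 YAP-SY CCA tumors lay below all 3 YAP-S CCA tumors, as for 28.3% of all genes. The mixed groups overlapped for each, and 8.35% of all genes separated there. Groups of 3 tumors are too small for a test of single stray tumors.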

How the results depend on the processing

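In CCA, 4 to 7 members passed under every alternative, and Src, Frk, Lck and Fgr passed in all of them. Of all genes 7171 passed in CCA, against 5121 to 8824 under the alternatives. In mixed tumors no member passed, and 3 to 5 members passed for the difference. With library size alone the median of all genes moved to -0.57 in CCA (760 higher and 8064 lower, against 3358 and 3813), -0.32 over both, -0.51 for the difference, -0.30 for CCA against mixed tumors in YAP-SY and 0.20 in YAP-S. Lyn (-0.63, adjusted p 0.0049) and Csk (-0.78, adjusted p 0.0158) then also passed in CCA, near that median. For CCA against mixed tumors in YAP-SY, 1 member passed, against 4 with library size alone, 3 with upper quartile factors, 4 with no filter, 4 in DESeq2, 4 without the 2 YAP-SY libraries whose descriptions begin with Mut1 (chosen after seeing the data), 0 with voom weights, 0 with only the groups of the contrast, and 0 to 4 with a tumor left out. In YAP-S, 0 members became 1 with library size alone, 3 in DESeq2, 4 with voom weights, 4 with only these groups, and 0 to 1 with a tumor left out. Over both histologies 4 became 1 to 4 with a tumor left out, and the Csk minus Src gap of 0.99 ran from 0.91 to 1.12. Among all genes, CCA against mixed tumors in YAP-SY called 532, against 0 to 2006 elsewhere, in YAP-S 0, against up to 3609, the difference 2788, against 1058 to 4330, and the fit over both 4555, against 2763 at the lowest. The causes were not tested. Same-numbered tumors of the models correlated by 0.18, 0.35 and 0.09 in their deviations, against -0.47 to 0.29 for 51 other pairs. The median of the other pairs was 0.0067, below each of the same-numbered values. The labels do not say what a number marks, and not every value passed 0.1, so the numbers were not taken as pairs, although the pair numbered 5 lay above all others. With the replicate number as a block in limma-voom, the correlation within a number was 0.22. In that limma-voom fit CCA against mixed tumors gave 0 members and 46 genes in YAP-SY, and 1 member (Fyn 0.57, adjusted p 0.0273) and 991 genes in YAP-S. Depth limits Blk, and Lck in YAP-SY CCA.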
